A study of Homo sapiens and synthetic construct with 14 samples.

Results

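The elements described here are the 257 windows listed under the project name GFI1 in a reporter library called benchmark, out of 1414 test elements in that library. They were chosen by that project name alone and by no measured value. GFI1 is a zinc finger protein that represses transcription through a short amino-terminal SNAG domain, which recruits the histone demethylase LSD1 with CoREST and histone deacetylases. It is known for its part in blood stem cells and in the development of lymphoid and myeloid cells. The sources used here do not say how the windows were picked for GFI1 or whether GFI1 binds them in the cells used.

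MPRAduo is a massively parallel reporter assay in which pairs of elements, here an enhancer and a test element, stand in 1 plasmid beside a barcoded GFP reporter, so that the barcodes counted in the RNA, set against those in the plasmid, give the activity of the pair. The series asked how silencers behave beside enhancers. Plasmids were electroporated into GM12878, an established lymphoblastoid line made from B cells with Epstein-Barr virus, and GFP mRNA was taken after 24 hours. The library was built and tested as 2 sets of plasmids, which the labels call the SE library (run1) and the ES library (run2), each with 4 RNA and 4 plasmid libraries. The series text calls the 4 libraries biological replicates. Total counts ran from 29485916 to 74076094 per RNA library and from 26879852 to 61606946 per plasmid library in run1. In run2 they ran from 61231331 to 102106231 and from 53900714 to 79291898.

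The 257 elements gave 5071 constructs in each run, of which 4814 carried 1 of 21 enhancers (En01 to En21) and 257 carried none. Each element stood beside 9 to 21 enhancers, with a median of 20. The 651 elements of the project random were the reference. An effect is the log2 ratio of RNA to plasmid counts of a construct. Its scale put the median random element beside the same enhancer at 0 in mean log counts. The fits of single constructs did not keep that 0 exactly. Their median over random elements was 0.07 over pairs and 0.09 without an enhancer in run1, and 0.01 and 0.05 in run2. A value of 1 is thus close to a doubling over the typical random element. The median GFI1 construct held 91 barcodes in run1 and 163 in run2, against 75 and 117 for random. Its mean plasmid count was 1026 and 1182.5.

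The column headings and the deposited fold changes disagree on which columns are RNA. Over 24896 constructs the log2 ratio of cDNA-headed to plmd-headed counts correlated with the authors' deposited log2 fold change at -0.957 in run1 and -0.999 in run2. The plmd-headed columns were therefore read as RNA. With the headings taken literally every effect and every higher or lower below changes sign, except in the comparison of strong with weak enhancers. There the ranking of the enhancers by their own activity would turn too, so that difference would keep its sign. Other columns go with the headings as written. The mean plasmid value in the tables is that of the plmd-headed columns, and the barcode number, headed as one of plasmids, followed the plmd-headed counts (r = 0.970 and 0.983) more closely than the cDNA-headed ones (0.817 and 0.698). The direction used here was thus set from the deposited fold changes alone. In log2 counts, the cDNA-headed libraries correlated with each other at 0.975 to 0.977 in run1 and 0.978 to 0.979 in run2. For the plmd-headed ones it was 0.861 to 0.883 and 0.946 to 0.962. In the direction used, 67.2% and 82.1% of elements of the project positive were higher over enhancers, and 4.48% and 8.96% lower. Of the project REST, 13.1% and 23.8% were higher, and 52.4% and 63.1% lower. The deposited rows have at least 10 barcodes and a mean plmd-headed count of at least 26.75 in run1 and 20 in run2, so constructs with little on that side are not seen here.

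Averaged over its enhancers, a GFI1 element more often stood above than below the typical random element. In run1, 85 of the 257 elements were higher and 19 lower (limma, Benjamini-Hochberg adjusted p under 0.05 over 1403 elements), with 153 not called. In run2, 139 were higher and 54 lower, with 64 not called. Single elements depart from the reference often in this assay: 43.3% of all tested elements were called in run1 and 72.6% in run2. By direction, 24.6% of all elements and 17.8% of random ones were higher in run1, against 33.1% of GFI1 elements. Lower calls made up 18.7% of all, 18.4% of random and 7.39% of GFI1 elements. In run2 the higher shares were 44.1%, 33.4% and 54.1%, and the lower shares 28.5%, 33.3% and 21.0%.

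The shift of the GFI1 elements as a set was small beside the differences among them. Their median effect was 0.04 in run1 and 0.23 in run2, and the median over random elements lay at -0.04 and 0.01. The GFI1 median exceeded the random median by 0.08 in run1, and by 0.091, 0.109, 0.111 and 0.132 in the single RNA libraries (SD 0.017, n = 4). In run2 the excess was 0.22, and 0.247, 0.174, 0.238 and 0.252 in the single libraries (SD 0.036, n = 4). It was thus above 0 in each of the 8 RNA libraries, each set against the mean of the 4 plasmid libraries of its run. These SDs therefore leave out the spread of the plasmid libraries. With any 1 RNA or plasmid library left out, the excess was 0.073 to 0.101 in run1 and 0.21 to 0.26 in run2. About the same part of the GFI1 elements lay above the random median in both runs, 66.1% and 65.8%. Between single elements, effects ran from -0.71 to 2.33 in run1 and from -0.98 to 3.34 in run2, with quartiles of -0.10 and 0.30, and of -0.13 and 0.65.

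How many elements count as higher or lower depended on where the 0 was put. When each enhancer's libraries were scaled on the summed counts of the random elements, which follow the strongest of them, instead of on their median, the median of all elements moved from -0.01 to -0.25 in run1 and from 0.12 to -0.03 in run2. In run1 the GFI1 calls then became 44 higher and 116 lower, beside 51 higher and 376 lower for random elements. In run2 they became 107 higher and 82 lower, beside 155 and 295. The GFI1 median stayed above the random median on that scale as well, at -0.20 against -0.27 in run1 and at 0.08 against -0.15 in run2.

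Across the 2 runs, 76 elements were higher in both, which is 89.4% of those higher in run1 and 54.7% of those higher in run2. The elements lower in both numbered 9, or 47.4% of the run1 and 16.7% of the run2 set. Over all 1396 elements measured in both runs, the shares in common were 87.3% and 48.0% of the higher calls, and 58.9% and 38.9% of the lower calls. For random elements they were 77.5% and 40.0%, and 52.1% and 29.0%. Opposite calls were given to 5 GFI1 elements, or 1.95%, against 2.65% of all and 2.18% of random elements. Over the 257 elements the effects of the 2 runs correlated with a Pearson's r of 0.75 and a Spearman's rho of 0.70, given as a description, since the runs share the elements, the enhancers and the cell line.

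The element with the highest effect in run1 was chr6:14877407-14877607 (coordinates as the element names give them; the sources used here do not state their genome build). Its values in the 4 RNA libraries were 2.51, 2.31, 2.23 and 2.27 in run1 and 2.64, 2.52, 2.89 and 2.67 in run2. Each library lay far above the 0 of the random elements, and the spread over libraries was a small part of the effect. The effect was 2.33 (SE 0.071, limma adjusted p = 2.7e-08) and 2.68 (SE 0.088, limma adjusted p = 7e-09). All 21 of its enhancer pairs were called higher in run1, and again all 21 in run2. The smallest effect of this element stood beside En20 in both runs, at 0.78 and 1.22, and the largest beside En01 in run1 (3.40) and En05 in run2 (3.83).

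Without an enhancer, chr6:14877407-14877607 gave RNA counts of 19206, 47936, 23274 and 23035 in run1 against plasmid counts of 4276, 3436, 2012 and 2198. The lowest RNA library thus held more than 4 times the count of the highest plasmid library. After scaling, the effect was 3.82 in run1 (SE 0.078, edgeR adjusted p = 9.1e-09) and 3.18 in run2 (SE 0.104, edgeR adjusted p = 2.8e-14).

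Next in run1 came chr4:86655777-86655977, with library values of 1.53, 1.39, 1.54 and 1.75 and an effect of 1.55 (SE 0.076), and chr2:191132092-191132292, with 1.54, 1.50, 1.50 and 1.52 and an effect of 1.52 (SE 0.050). Both were about as high in run2, at 1.53 and 1.42. The other 7 of the 10 highest in run1 ran from 1.13 (chr1:167416805-167417005) to 1.32 (chr3:154950474-154950674). Each of these 10 was also called higher in run2, and each was called higher without an enhancer in run1.

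The order at the top changed in run2, and only 3 of its 10 highest elements were among the 10 highest of run1. First stood chr1:60144629-60144829, with 3.40, 3.25, 3.14 and 3.57 in the libraries of run2 and an effect of 3.34 (SE 0.202, limma adjusted p = 4.9e-07). In run1 its libraries read -0.04, 0.68, 0.70 and 0.15, which straddle 0, and the effect of 0.37 was not called (limma adjusted p = 0.11). Only 10 enhancers carried it, with a median of 14 barcodes in run1 and 90 in run2. The value beside En21 in run2, 5.40, rests on plasmid counts of 99, 15, 5 and 0. Beside the other enhancers its run2 effects ran from 0.81 to 3.98. Without an enhancer it was high in both runs, at 3.76 (SE 0.746) and 3.79 (SE 0.288), though the run1 libraries spread from 1.61 to 5.25.

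More deeply covered elements changed in the same direction between the runs. The window chr2:48373191-48373391 read 1.15, 1.03, 1.26 and 1.29 in run1 and 2.94, 2.92, 2.77 and 2.92 in run2. The 2 sets do not overlap. The window chr14:50528522-50528722 read 0.71, 1.04, 1.12 and 1.08 in run1 and 2.66, 2.56, 2.50 and 2.67 in run2. Their effects rose from 1.18 to 2.89 and from 0.99 to 2.60.

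The elements lower in both runs made up 3.50% of the GFI1 elements, 11.1% of all elements and 9.64% of the random ones. The 9 GFI1 elements had effects from -0.62 to -0.27 in run1 and from -0.98 to -0.19 in run2. The lowest of the 9 in run1 was chr18:9410600-9410800, with library values of -1.07, -0.47, -0.54 and -0.39 in run1 and -0.97, -0.80, -1.20 and -0.59 in run2, all 8 of them below 0. Its effects were -0.62 (SE 0.136, limma adjusted p = 0.0052) and -0.89 (SE 0.121, limma adjusted p = 0.00012). A second window shifted by 39 bases, chr18:9410639-9410839, was also lower in both runs, at -0.56 and -0.34. The 2 windows share 161 bases. Over 13 shared enhancers they read -0.92 and -0.34 in run2, a called difference of 0.58 (SE 0.136, limma adjusted p = 0.0083). In run1 the difference was -0.10 and not called (limma adjusted p = 0.62).

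The window chr1:15650549-15650749 read -0.23, -0.46, -0.43 and -0.25 in run1 and -1.18, -0.69, -1.17 and -0.88 in run2, so that each run2 library lay below each run1 library. Its effects were -0.34 and -0.98, and in run2 it was called lower beside 10 of 19 enhancers. The remaining elements lower in both runs were chr12:129318040-129318240, chr1:52996322-52996522, chr12:133712365-133712565, chr17:38482554-38482754, chr1:116963188-116963388 and chr20:37624414-37624614. Of these, chr12:133712365-133712565 (-0.36 in run1 and -0.77 in run2) lost its run1 call without any of 3 RNA libraries (1, 2 or 4) or 3 plasmid libraries (1, 2 or 3), at limma adjusted p values of 0.051 to 0.071. In run2 the lowest effect belonged to chr16:14595582-14595782, at -0.98 (SE 0.155), with -1.38, -1.09, -0.76 and -0.70 in the libraries. It stood at -0.27 in run1, where it was not called (limma adjusted p = 0.064).

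The lowest elements had few barcodes. The 10 lowest called in run1 had a median of 32 barcodes per construct, the 10 highest called 220, and all GFI1 windows with a single name 97. In run2 these medians were 72.25, 478.75 and 199.75. By plasmid count the order held in run1 only: the medians of the same 3 sets were 571, 1353 and 1249 in run1, and 1100, 943 and 1535 in run2. Over 256 windows the effect and the barcode number had a Spearman's rho of 0.55 in run1 and 0.46 in run2, while for the effect and the plasmid count it was 0.33 and 0.04. The barcode number follows the columns read as RNA, as given above, and the part of coverage in the lower calls was not tested. The standard error fell with the barcode number (rho = -0.65 and -0.64).

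The single constructs give the pattern per enhancer. Among 4813 GFI1 pairs of element and enhancer in run1, 542 were higher and 47 lower (edgeR, adjusted p under 0.05), or 11.3% and 0.977%. Over all elements 11.2% of pairs were called, 9.03% higher and 2.18% lower, and over random ones the shares were 5.30% and 1.46%. Among 4782 pairs in run2, 1628 were higher and 411 lower, or 34.0% and 8.59%, where 39.7% of all pairs were called, 27.8% higher and 11.9% lower, and 18.9% and 12.8% of random pairs. On the summed random counts, 336 GFI1 pairs of run1 were higher and 170 lower, while for run2 the split was 1301 to 697. Without plasmid library 1, 2, 3 or 4 the run1 count of higher GFI1 pairs fell to 353, 364, 355 and 353. That of random pairs fell from 628 to 343, 342, 339 and 343.

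Calls beside many enhancers were mostly in the higher direction. In run1, 20 elements (7.78%) were higher beside at least 10 enhancers, where 6.02% of all and 2.62% of random elements were. The most enhancers beside which any 1 GFI1 element was lower in run1 was 6, and for random elements it was 5. In run2, 82 elements were higher beside at least 10 enhancers (31.9%, against 22.7% of all and 12.3% of random elements) and 8 were lower beside at least 10 (3.11%, against 6.16% and 6.46%). The element called lower beside the most enhancers in run2 was chr1:245498223-245498423, with 14 of 21. Its run2 libraries read -0.85, -0.63, -0.70 and -0.57 and its run1 libraries 0.24, -0.11, -0.11 and -0.01.

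Without any enhancer, 64 GFI1 elements were higher and 1 was lower in run1 (edgeR, adjusted over all constructs of the run). The share called over all 1414 elements was 19%, with 17.5% higher and 1.56% lower. In run2, 111 were higher and 9 lower, where 40.5% of all elements were called, 33.7% higher and 6.79% lower. Among random elements 65 and 149 of 651 were higher and 15 and 60 lower. The GFI1 median was 0.34 in run1 and 0.29 in run2, against 0.09 and 0.05 for random. Scaled on the summed random counts, run1 had 33 GFI1 elements higher and 16 lower, and run2 had 84 higher and 41 lower. Without plasmid library 1, 2, 3 or 4, the run1 count of higher GFI1 elements was 42, 43, 45 and 44, and that of random elements 45, 47, 45 and 45.

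Most elements called higher alone were also called higher on average beside enhancers. In run1 these were 56 of 64 (87.5%, against 83.8% over all elements and 80.6% of random ones), and the other 8 were not called. In run2 they were 108 of 111 (97.3%, against 90.3% and 82.3%). Of the elements higher without an enhancer, 61 were so in both runs, or 95.3% of the run1 set and 55.0% of the run2 set, where the shares were 91.5% and 47.4% for all elements and 84.6% and 36.9% for random ones. Among constructs with at least 100 plasmid counts on average, the highest after chr6:14877407-14877607 in run1 were chr20:22788390-22788590 at 2.89 (SE 0.130) and chr3:193846057-193846257 at 2.83 (SE 0.131). The value of 3.76 for chr1:60144629-60144829 in run1, given above, rests on a mean plasmid count of 88.75. In run2 chr1:60144629-60144829 and chr2:48373191-48373391 led, at 3.79 and 3.55. Over 257 elements, the effect alone and the mean effect over enhancers correlated with an r of 0.77 in run1 and 0.93 in run2, as a description, since both come from the same libraries.

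The elements below random without an enhancer had weaker statistics. In run1 the only one was chr20:37624414-37624614, at -0.68, -0.52, -0.32 and -0.74 in the libraries and -0.56 in all (SE 0.138, edgeR adjusted p = 0.025). That call was lost without RNA library 4 or plasmid library 1, 3 or 4, at edgeR adjusted p values of 0.061 to 0.102. In run2 its value was -0.09 and not called. In run2 the lowest was chr7:137627974-137628174, at -1.49, -1.23, -0.86 and -0.14 in the libraries and -0.85 in all (SE 0.218, edgeR adjusted p = 0.0046). It was followed by chr18:9410600-9410800 at -0.77, a call lost in 6 of the 8 fits that left out a library (every one but those without RNA library 2 or 4), and by chr6:142433715-142433915 at -0.77 (SE 0.161, edgeR adjusted p = 0.00086).

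The excess of GFI1 over random elements differed from enhancer to enhancer. In run1 the difference of medians was largest beside En03 (0.27) and En05 (0.20) and lay at 0.00 beside En20 and at -0.03 beside En21. Beside En21, the 4 RNA libraries gave 0.01, -0.04, -0.04 and -0.05, so that they lie on both sides of 0. In run2 it was largest beside En02 (0.40), En17 (0.39) and En01 (0.36) and smallest beside En20 (0.09) and En21 (0.04). Beside En21 the run2 libraries gave 0.026, -8.65e-05, 0.027 and -0.020, again on both sides of 0. En20 and En21 are the enhancers with the highest activity of their own, at 4.51 and 4.42 above the median random element without an enhancer in run1 and at 5.17 and 5.19 in run2. En01 and En02 were the lowest, at -0.11 and -0.06 in run1 and at 0.07 and -0.07 in run2. The excess did not follow this order throughout. In run2, En19 stood at 5.11 with an excess of 0.28, and En17, with one of the largest excesses, at 4.22. En16 is left out of this order, since 23 GFI1 elements in run1 and 7 in run2 could be tested beside it.

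That difference was tested for each element as its mean effect beside the 7 strongest enhancers minus that beside the 7 weakest, with the strength taken from constructs that carry the enhancer and no test element. In run1, 29 of 245 elements were lower beside strong enhancers and 0 higher (limma). At an unadjusted p under 0.05 the counts were 55 and 10. Of all 1314 elements tested, 8.07% were called, 7.76% lower and 0.304% higher. In run2, 57 of 238 were lower and 8 higher, where 23.9% of all elements were called, 20.6% lower and 3.35% higher. The GFI1 shares lower were 11.8% and 23.9%. The GFI1 median of the difference was -0.14 in run1 and -0.22 in run2, and that of random elements -0.03 and -0.04. Scaled on the summed random counts, 12 elements were lower and 3 higher in run1, while run2 had 29 lower and 15 higher, with GFI1 medians of 0.00 and -0.04 against 0.12 and 0.14 for random. Without plasmid library 1, 2, 3 or 4 the run1 count of lower elements was 12, 9, 11 and 11, and without RNA library 4 the count of higher elements was 5.

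The element chr6:14877407-14877607 had an effect of 3.03 beside weak and 1.83 beside strong enhancers in run1, a difference of -1.20 (SE 0.129, limma adjusted p = 0.0019). In run2 the effects were 3.22 and 2.39. For chr20:22788390-22788590 they were 1.55 and 0.57 in run1 and 3.07 and 1.91 in run2. Its values beside single enhancers in run1 went from 2.17 beside En05 to -0.56 beside En20, where it was called lower (edgeR adjusted p = 0.0012). In run2 it was 3.53 beside En01 and 1.28 beside En20, higher beside each of 20 enhancers. The largest difference in run2 was that of chr2:48373191-48373391, with 3.80 beside weak and 2.30 beside strong enhancers.

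Some named differences depended on single libraries. Of those lower beside strong enhancers, chr11:3941360-3941560 in run1 (-0.95) lost its call in 7 of the 8 fits that left out a library, at limma adjusted p values of 0.057 to 0.114. The other 9 kept theirs in all 8. Of the 5 higher beside strong enhancers, all in run2, chr4:39559917-39560117 (0.89) alone kept its call in all 8. With the 5 strongest against the 5 weakest enhancers it was 0.83 and not called (limma adjusted p = 0.070). In run2, chr10:121631657-121631857 had 0.72 beside strong and -0.33 beside weak enhancers, a difference of 1.06 (SE 0.222, limma adjusted p = 0.0094). Without plasmid library 2 that difference was 0.53 (limma adjusted p = 0.23), and in run1 it was -0.72 and not called. With 5 enhancers a side the run2 difference was 0.94 and not called (limma adjusted p = 0.073). For chr3:17734888-17735088 the difference of 0.81 was 0.05 without plasmid library 3, and the call was lost without plasmid library 1 or 2 too. The calls of chr1:204430944-204431144 and chr6:122806159-122806359 were lost in 5 and in 4 of the 8 fits that left out a library, respectively.

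The difference between the SE and ES libraries was tested as an interaction over the enhancers measured in both. Of the 257 elements, 87 were higher in run2 and 37 lower (limma), where 49.1% of all 1396 elements were called, 33.8% higher and 15.3% lower. The GFI1 shares were 33.9% and 14.4%. The GFI1 median of the difference was 0.15, the median of all elements also 0.15, and that of random elements 0.04. On the summed random counts 108 were higher and 20 lower. The runs used separate plasmid libraries and RNA libraries, so the build of the library and the run cannot be told apart.

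The largest rise was that of chr1:60144629-60144829 (2.97, SE 0.287), described above with its low coverage. It was followed by chr2:48373191-48373391 (1.71, SE 0.132), chr14:50528522-50528722 (1.61, SE 0.131), chr2:127402328-127402528 (1.51, SE 0.121) and chr20:22788390-22788590 (1.39, SE 0.113). The largest fall was that of chr1:169162799-169162999, which read -0.06, 0.00, -0.06 and 0.12 in run1 and -1.05, -0.64, -0.99 and -0.76 in run2. Its difference was -0.86 (SE 0.112, limma adjusted p = 1.4e-05), and in run2 it was called lower beside 12 of 20 enhancers. Opposite calls in the 2 runs were given to chr12:120680206-120680406 (-0.71 and 0.46), chr1:120930316-120930516 (-0.26 and 0.25), chr5:140985327-140985527 (-0.29 and 0.46), chr6:157615313-157615513 (-0.20 and 0.41) and chr1:12057647-12057847 (0.22 and -0.15), which were named because of these calls.

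Some GFI1 windows overlap, which allows 2 stretches that share most of their sequence to be compared in the same libraries, beside the same enhancers, with the scaling cancelled. There were 22 such pairs among 41 windows, shifted by 13 to 68 bases, which leaves 187 to 132 bases in common. In run1, 6 pairs differed (limma, adjusted over 58 overlapping pairs of all projects, of which 17.2% were called), and in run2, 11 differed, where 46.6% were called. The median size of the difference was 0.22 and 0.36. Without any 1 of the plasmid libraries 3 pairs were called in run1. All pairings of the chromosome 20 windows described next are counted here, and each was called in both runs. They share windows, so those calls are not independent of each other.

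The clearest series was a set of 3 windows on chromosome 20 that step by 24 bases. The first, chr20:22788342-22788542, read -0.00, 0.24, 0.19 and 0.14 in run1. The second, chr20:22788366-22788566, read 0.45, 0.47, 0.44 and 0.52, and the third, chr20:22788390-22788590, read 1.01, 0.90, 1.23 and 1.19. The 3 sets of libraries do not overlap, and the values increase with the coordinate. In run2 the windows read 0.54 to 0.90, 1.21 to 1.33 and 2.33 to 2.64. Over shared enhancers the third exceeded the first by 0.94 in run1 (SE 0.106, limma adjusted p = 0.00026) and by 1.69 in run2 (SE 0.082, limma adjusted p = 7e-07). The step from the first to the second, 0.33 in run1, lost its call without RNA library 4 or any 1 of the plasmid libraries. Without an enhancer the same order held, at 1.40, 1.61 and 2.89 in run1 and 1.21, 1.67 and 3.05 in run2.

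A pair on chromosome 15 went the other way. The window chr15:81271121-81271321 read 2.16, 2.03, 2.13 and 2.13 in run2, and chr15:81271150-81271350, which starts 29 bases further on, read 0.58, 0.52, 0.65 and 0.36. The difference was -1.59 in run2 (SE 0.100, limma adjusted p = 2.1e-06) and -0.52 in run1 (SE 0.132, limma adjusted p = 0.026), where the call was lost without any 1 of the plasmid libraries. The pair chr4:86655777-86655977 and chr4:86655837-86656037 differed by -0.66 in run1 and -0.36 in run2, both called, and both windows were high. The pair chr12:76536132-76536332 and chr12:76536175-76536375 differed by 0.0016 and -0.0014, with SEs of 0.093 and 0.097.

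One of the 257 entries carries the names of all 3 windows of chromosome 20. It stood beside 11 enhancers, with a median of 15 barcodes in run1 and 50 in run2. Its libraries read -1.06, 0.07, 0.42 and 0.51 in run1, on both sides of 0, and 0.92, 1.08, 1.23 and 0.97 in run2.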

How the data were processed

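Per the file headers, the benchmark tables hold raw barcode counts per construct for 4 cDNA-headed and 4 plmd-headed columns, a deposited log2 fold change and a deposited mean plasmid signal. No source used here states the aligner, the counter or the genome build. The mean plasmid signal and the log2 fold change the authors deposited were used only to check columns and direction. Lines without an assigned element (22 per table, 0.96% to 1.06% of counts in run1 and 1.39% to 1.73% in run2) were dropped. A construct was kept at a mean of 20 or more plasmid counts, which removed 1 GFI1 construct in run1 and 32 in run2.

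Library scales were set per enhancer on the median random element. The test of single constructs was edgeR's (4.0.16) quasi-likelihood test. The SE printed with it was derived as the absolute log2 ratio over the square root of the F statistic, since the test gives none. Elements were tested with limma 3.58.1 on the mean over at least 5 enhancers of log2(count + 0.5) minus the scale, in R 4.3.3, with Benjamini-Hochberg adjustment over all features and a threshold of 0.05. PCR reads are not independent molecules. The fits of single constructs and of elements over enhancers were run on simulated counts, the other comparisons were not, and no outcome is given here. Alternatives were summed random counts, TMM, other minimums, a pseudocount of 5, a median over enhancers, DESeq2 1.42.0, a replicate block and leaving out each library. Same-numbered RNA and plasmid libraries did not deviate together (correlations of 7.6e-05 to 0.026), so the block was no part of the main fit.

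Named elements were, per run, the 10 highest and 10 lowest called over at least 10 enhancers with 1 sign in all RNA libraries. Without an enhancer they were the 5 highest and 5 lowest called among constructs with 100 or more plasmid counts on average. For strong against weak enhancers and for the run difference they were the 5 most extreme each way. Elements with opposite calls, lower in both runs, with the most lower pairs or in overlapping windows were named after their values were seen. The elements and comparisons were chosen with earlier results of these data known.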

Additional observations from a re-analysis of the deposited data

Results flagged for a closer look

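In 5 of 58 sets of 4 RNA libraries, 1 library stood apart from the other 3 by Dixon's test, where chance gives about 1 in 20. In run1 these were chr12:129318040-129318240, with a library at -0.73 while the next was at -0.38, and chr11:59544037-59544237, with one at 1.47 and the next at 1.17. In run1 without an enhancer, chr3:193846057-193846257 had a library at 3.07 and the next at 2.78. In run2 they were chr2:48373191-48373391, at 2.77 with the next at 2.92, and chr12:2445538-2445738, at 1.86 with the next at 2.00. No sign changed with these libraries.

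The effect beside strong and beside weak enhancers differed in run1 by -1.20 for chr6:14877407-14877607, by -1.05 for chr1:167416805-167417005, by -0.97 for chr20:22788390-22788590, by -0.95 for chr11:3941360-3941560 and by -0.95 for chr3:193846057-193846257. In run2 it differed by -1.50 for chr2:48373191-48373391, by -1.18 for chr15:81271150-81271350, by -1.16 for chr15:81271121-81271321, by -1.16 for chr20:22788390-22788590 and by -1.08 for chr20:22788366-22788566. Positive differences in run2 were 1.06 for chr10:121631657-121631857, 1.004 for chr1:204430944-204431144, 0.89 for chr4:39559917-39560117, 0.86 for chr6:122806159-122806359 and 0.81 for chr3:17734888-17735088.

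The effect differed between the runs, run2 minus run1, by 2.97 for chr1:60144629-60144829, by 1.71 for chr2:48373191-48373391, by 1.61 for chr14:50528522-50528722, by 1.51 for chr2:127402328-127402528 and by 1.39 for chr20:22788390-22788590. It differed by -0.86 for chr1:169162799-169162999, by -0.71 for chr16:14595582-14595782, by -0.69 for chr1:245498223-245498423, by -0.64 for chr1:15650549-15650749 and by -0.60 for chr14:69452983-69453183. Each of these differences was tested with limma as an interaction or as a difference of means, and each had an adjusted p under 0.05 with all libraries. That of chr11:3941360-3941560 was lost in 7 of the 8 fits that left out a library, with the replicate block and on the summed random counts, and that of chr1:167416805-167417005 with the block (limma adjusted p = 0.056). Each of the positive differences beside strong enhancers in run2 also lost its call under some alternative. The one of chr3:17734888-17735088 lost it with the block (limma adjusted p = 0.056) and with a pseudocount of 5 (limma adjusted p = 0.081), among others.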

How the results depend on the processing

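Scaling on summed random counts, which moves the level of 0, gave 336 higher and 170 lower pairs in run1 and 697 lower in run2. For elements over enhancers it gave 44 higher and 116 lower in run1 and 82 lower in run2. Without an enhancer it gave 33 and 16 in run1 and 41 lower in run2. Strong minus weak enhancers gave 3 and 12 in run1 and 15 and 29 in run2, and the run difference gave 20 lower.

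Library numbers did not pair the samples. With the replicate block, 17 pairs were lower in run1, 0 elements were lower without an enhancer in run1, 3 elements were lower beside strong enhancers in run1 and 5 higher in run2. DESeq2 gave 80 lower pairs and 2 lower elements without an enhancer in run1. For strong minus weak enhancers in run1, a pseudocount of 5 and the 5 strongest against the 5 weakest enhancers each gave 1 higher element. In run2 the difference of chr3:17734888-17735088 went from 0.81 to -0.12 with a minimum count of 100 and to -0.19 with 5 enhancers a side. The cause was not tested.

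Leaving out 1 library gave 353 to 608 higher and 17 to 74 lower pairs in run1, and 1505 to 1582 and 324 to 410 in run2. Elements over enhancers gave 69 to 91 and 11 to 28 in run1, and 126 to 136 and 48 to 54 in run2. Without an enhancer the counts were 42 to 70 and 0 to 3 in run1, and 104 to 115 and 6 to 13 in run2. Strong minus weak enhancers gave 0 to 5 and 9 to 34 in run1, and 3 to 6 and 39 to 47 in run2. The run difference gave 74 to 89 and 28 to 37. Overlapping windows, added after the data were seen, gave 3 to 8 calls in run1 and 11 to 12 in run2. The GFI1 median over random was 0.073 to 0.101 in run1 and 0.21 to 0.26 in run2. The lowest counts of lower elements over enhancers in run1 came without plasmid library 1 (12) or 3 (11), and those of lower pairs without plasmid library 1 (19), 2 (17), 3 (17) or 4 (21). The highest came without RNA library 3 (74).

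Of 1476 values of named results under alternatives, 1407 kept direction and call, 67 kept direction alone and 2 were reversed. These results were named because they were called in the main fit, and the alternatives reuse its libraries, so the share kept is no independent check. Limits are the few barcodes of the lowest elements, the minimum on the side read as RNA, and the direction of the columns, which rests on the deposited fold changes.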
